A study of Mus musculus with 42 samples.

Results

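The 10 genes described here encode class 3 semaphorins, neuropilins and plexins: the receptors Nrp1, Nrp2, Plxna1, Plxna2, Plxna4 and Plxnd1 and the secreted ligands Sema3a, Sema3c, Sema3d and Sema3e. They were chosen by name and are 10 of 21938 protein-coding genes in the GENCODE annotation. Each was taken as its annotated span in the mouse genome build mm10 plus 50 kb on each side. Of the 1087512 binding events in 21 chromatin immunoprecipitation sequencing (ChIP-seq) event lists, 2443 lay in these windows, which together cover 3059 kb or 0.116% of the assembled genome. Events of any list within 100 bp of each other were joined, which gave 747 sites.

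Class 3 semaphorins are secreted proteins that repel or attract growing axons. Most of them bind a neuropilin, which has a short cytoplasmic tail and passes the signal on through an A-type plexin, whereas SEMA3E can bind Plexin-D1 without a neuropilin. In the developing limb and spinal cord these molecules are known to time the entry of motor axons into the limb, to keep axons bundled and to steer their dorsal and ventral choices. Hox genes are known to give spinal motor neurons their position along the body axis, and so their targets in the limb and trunk.

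The libraries came from mouse embryonic stem cell lines of the Ainv15 background, grown as embryoid bodies (EBs) and, unless stated, patterned from day 0 with retinoic acid and a smoothened agonist (SAG). Each line carried a single tagged, doxycycline-inducible Hox transgene, so the HOX signal is that of an induced, tagged protein driven from 1 locus and not of the endogenous gene. Doxycycline was given from day 2, and cells were collected at day 3 (24 h) or day 4 (48 h). Full-length factors at day 3 were HOXC6, HOXC8, HOXC10, HOXC13 and the paralogues HOXA9, HOXC9 and HOXD9, beside 4 chimeras. HOXC13:C10.1 and HOXC13:C10.2 join the N-terminal part of HOXC13 to the homeodomain and C-terminus of HOXC10, HOXC10:C13.1 and HOXC10:C13.2 do the reverse, and HOXC13:C10.2 and HOXC10:C13.2 also exchange a conserved stretch before the homeodomain. Below, each chimera is named by its homeodomain, which stands for the homeodomain with the C-terminus. At day 4 the factors were HOXC6, HOXC9 and HOXC10. HOXC6 and HOXC9 were also induced for 12 h in EBs without retinoic acid and SAG, called EB HOXC6 and EB HOXC9 below. For the cofactors, MEIS was immunoprecipitated from lines induced for Hoxc6, Hoxc9 or Hoxc10 at day 3 (named iHoxc6 and so on), and PBX from the latter pair of lines at day 4. The Flag tag was the target in most HOX libraries. A second tag, HA, was used for 1 of 2 libraries of HOXA9, HOXD9 and HOXC13, and V5 for 1 of 3 libraries of HOXC10 at day 3. The MEIS libraries came from V5-tagged lines, so the HOX events they are compared with are mostly from other, Flag-tagged lines.

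Each event carries an estimated number of ChIP reads and of scaled control reads, summed over the libraries of its list. The 40 libraries behind the lists held 5.04 to 32.9 M reads, and the lists held 848 to 128388 events. A list comes from 2 libraries in 14 cases and from a single one in 5, all of them MEIS or PBX, while HOXC10 has 3 at day 3 and 4 at day 4, and no value per library is given for an event. For this reason no difference below has a test between replicates: a share is given with its 95% Wilson interval, which covers counting error only, and beside the share over the whole list. For counts within 1 gene and for shares under an alternative setting the whole-list share is mostly not given. Because read numbers depend on depth, an event is placed by its rank: top 1% means that 1% of the events of the same list had as many ChIP reads or more. Such a place also depends on the length of the list, so places in lists of unlike length are not directly comparable. Among the HOXC10 libraries of day 3, 1 held 5.04 M reads with a signal fraction of 0.0170, and it could not be left out. The 2 PBX libraries had signal fractions of 0.00800 and 0.00900.

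Every HOX list was denser near these genes than over the genome as a whole. Their windows held between 0.178% (HOXC10:C13.2) and 0.291% (HOXC6 at day 3) of the events of a HOX list, against 0.116% of the genome. HOXC9 at day 3 placed 175 events here, HOXC6 52, HOXC10 62, HOXC8 123, HOXA9 148, HOXD9 151 and HOXC13 214. For HOXC9 the median over the 10 genes was 5.13 events per 100 kb, against 0.985 over all protein-coding genes treated in the same way and 2.80 over the genome. All 10 genes held a HOXC9 event, and so did 70.4% of protein-coding genes. HOXC6 and HOXC10 had an event at 9 of the 10 genes, each missing only Plxnd1, and at 45.5% and 46.9% of protein-coding genes. The windows are long, 140 kb to 577 kb against a median of 117 kb, so shares of genes with an event are not comparable by length, and the density is given beside them. By rank the events here were not unusual. In the top 1% of a list were 0.901% of them, at 14 sites of 7 genes, where 1% holds by definition over a whole list. The median place of events here in a HOX list was between 44.0% (HOXC10:C13.1) and 63.6% (HOXC10 at day 4).

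**Figure D1:**
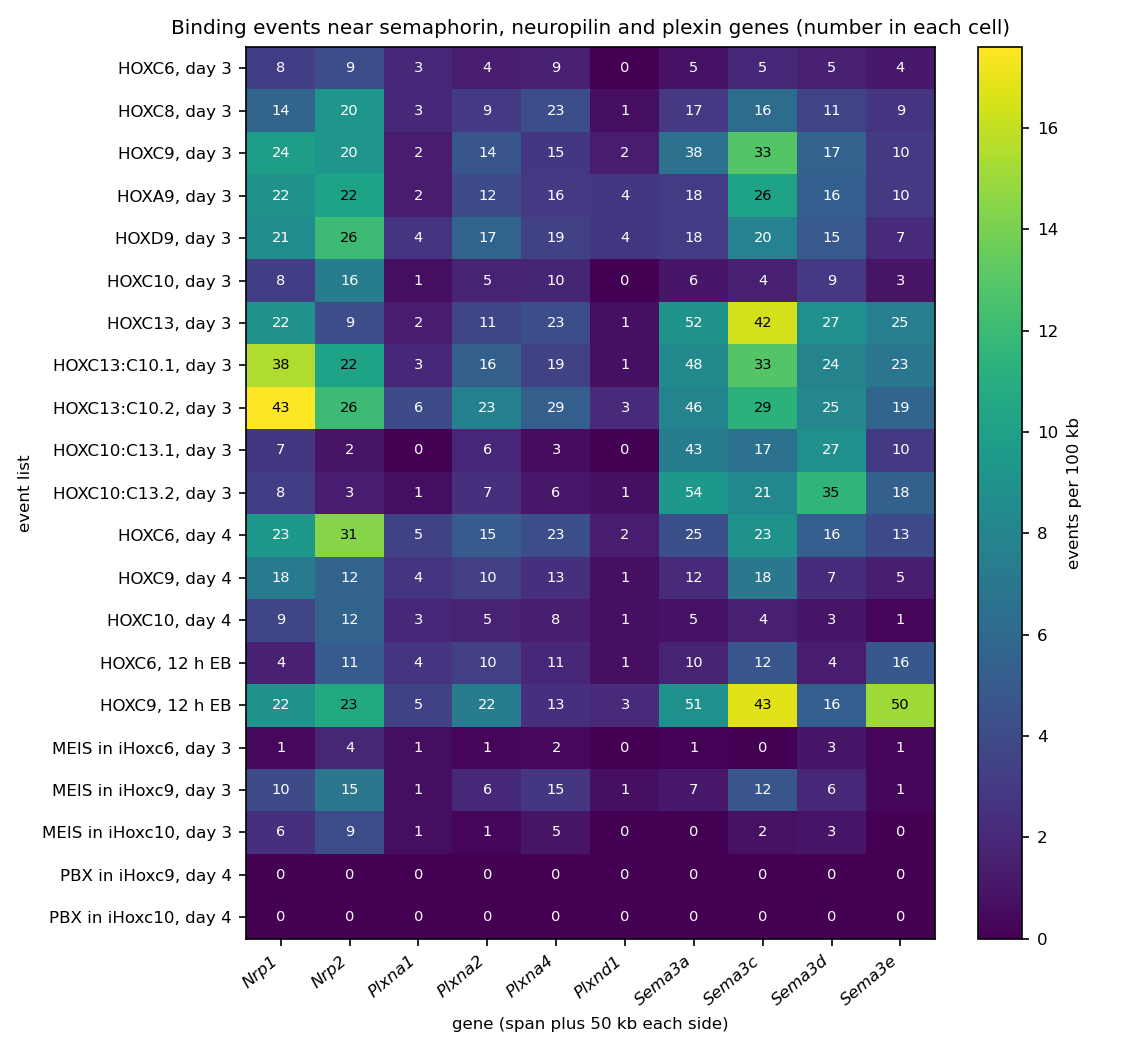
Events of each list (rows) near each gene (columns), with the number of events in the cell and the colour giving events per 100 kb of window. Nrp1 holds 43 events of HOXC13:C10.2, Sema3e holds 50 of EB HOXC9, and both PBX lists are at 0 throughout.

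The receptors and the ligands differed in which lists were dense around them. The 6 receptor windows cover 1589 kb and the 4 ligand windows 1470 kb, or 48.1% of the total, and all 4 ligand genes lie on chromosome 5. HOXC10 placed 40 events near receptors and 22 near ligands at day 3, and 38 and 13 at day 4. HOXC13 placed 68 near receptors and 146 near ligands. The chimeras with the HOXC13 homeodomain were the most uneven: HOXC10:C13.1 had 18 events near receptors and 97 near ligands, and HOXC10:C13.2 had 26 and 128. Their densities were 1.13 and 1.64 events per 100 kb near receptors, under their genome means of 2.32 and 3.26, and 6.60 and 8.71 near ligands. The chimeras with the HOXC10 homeodomain were more even, with 99 and 128 events for HOXC13:C10.1 and 130 and 119 for HOXC13:C10.2. Base composition moved with this split. The ligand windows had GC contents of 36.2% to 37.8% and the receptor windows 42.0% to 51.3%, with 41.7% over the genome, and its part in the split was not tested.

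**Figure D2:**
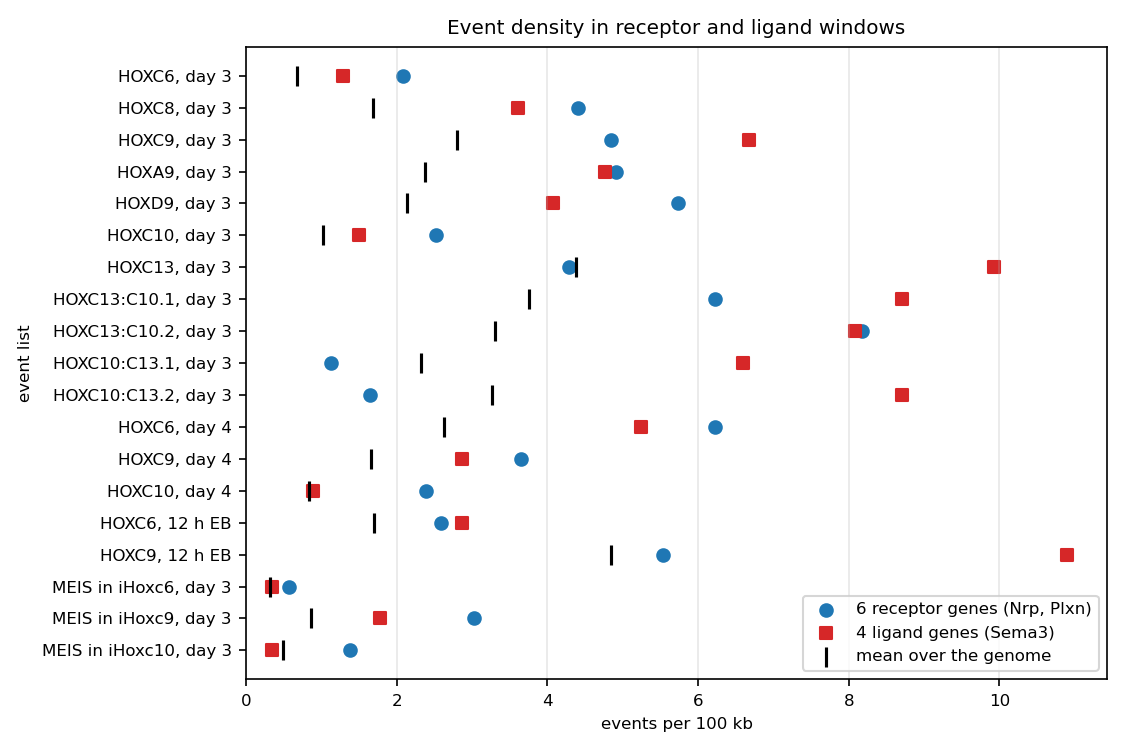
Events per 100 kb in the 6 receptor windows (circles) and the 4 ligand windows (squares) for the 19 lists with events here, with the mean over the genome as a bar. HOXC10:C13.1 and HOXC10:C13.2 lie under their genome mean at the receptors and over it at the ligands.

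Sites were mostly in introns. With 1 principal coding transcript per gene, 463 of the 747 sites (62.0%) were intronic, 106 were upstream of the gene, 89 downstream, 78 inside the annotated span but in longer transcripts only, 6 in exons of untranslated regions (UTRs) and 5 in coding exons. Only 11 sites lay within 1 kb of the start of the principal transcript, and none of these was held by 10 or more lists. The one held most widely was 284 bp upstream of Sema3c at chr5:17573997, with 8 lists. Of all sites 316 were held by 1 list, 283 by 2 to 4, 100 by 5 to 9 and 48 by 10 or more. Events were joined into sites only in these windows, so counts of sites here and below have no whole-list value beside them. Among the sites of 1 list, 92 belonged to EB HOXC9 and 77 to HOXC13.

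Sequences are shown for the site of each gene held by the most lists, for the sites that stand for a class of binding, and for some of the strongest sites, each as 50 bases either side of the strongest event on the plus strand of GRCm38, the assembly of mm10. Capitals mark the letters of 5 motifs on either strand: TAAT, the core of many homeodomain sites; TTTAT and TTTAC, forms of the posterior HOX site; TGATTTAT, a joint site of PBX and a posterior HOX protein that contains TTTAT; and TGACAG, the MEIS site. A match is a description of the letters and not evidence of contact. At a wide site the events of other lists can lie outside the bases shown.

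Nrp1 encodes neuropilin-1, the main receptor of SEMA3A, and spans chr8:128358604-128503363. It had 308 events in 77 sites, 31.5 sites per 100 kb. HOXC13:C10.2 had 43 events, HOXC13:C10.1 38, HOXC9 24, HOXA9 22, HOXC13 22, HOXD9 21, HOXC8 14, and HOXC6 and HOXC10 8 each. These lists held from 17900 (HOXC6) to 115879 events (HOXC13). Counts at a gene, here and below, therefore do not by themselves show which factor favoured it. All 8 HOXC10 events had a HOXC9 event within 100 bp, as did 81.3% over the whole HOXC10 list of day 3.

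The site of Nrp1 held by the most lists, 17 of 21, was in intron 6, 91.4 kb from the start, and held all 7 full-length factors. HOXC9 had 558 ChIP reads there (top 5.91%), HOXA9 277 (8.47%), HOXD9 151 (17.2%), HOXC10 151 (21.3%), HOXC13 94.7 (41.4%), HOXC8 51.4 (70.9%) and HOXC6 38.6 (91.2%). At day 4 HOXC9 had 352 (8.87%), HOXC6 162 (20.1%) and HOXC10 162 (26.2%). HOXC9 was thus placed above the other full-length factors at both days. HOXC6 ranked 16328 of 17900 events at day 3 and 13948 of 69297 at day 4, so its percent places come from lists of unlike length.
Nrp1, intron 6, chr8:128450667-128450767: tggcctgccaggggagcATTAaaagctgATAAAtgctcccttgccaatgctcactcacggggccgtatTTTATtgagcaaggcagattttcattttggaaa

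A second Nrp1 site of all 7 factors lay in intron 2, 57.7 kb from the start, with 16 lists. It joins day 3 events further apart than 100 bp. HOXA9, HOXD9, HOXC6 and HOXC10 lay at chr8:128417024. HOXC9 and HOXC13 lay at chr8:128417167 and HOXC8 at chr8:128417158, outside the bases shown. This joined site was near the top for the group 9 factors: HOXA9 had 1061 ChIP reads (top 0.450%), HOXC9 945 (2.23%) and HOXD9 469 (1.56%), and HOXC9 at day 4 had 1021 (1.16%). HOXC10 had 109 (35.2%) at day 3 and 265 (8.63%) at day 4, HOXC6 67.4 (52.8%) and 271 (11.1%), and HOXC13 89.0 (44.5%). MEIS was in the top 1.47% in iHoxc9 cells and at 15.6% and 15.5% in iHoxc6 and iHoxc10 cells. In the same intron, at chr8:128418472, lay the strongest HOXC6 event of the gene, with 409 reads at day 3 (top 2.58%) and 1179 at day 4 (1.01%).
Nrp1, intron 2, chr8:128416974-128417074: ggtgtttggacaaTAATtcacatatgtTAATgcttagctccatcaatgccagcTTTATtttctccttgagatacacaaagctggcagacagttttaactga

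The strongest event of the whole gene set was an EB event. At chr8:128538570, 179 kb from the start of Nrp1 and downstream of its end, EB HOXC9 had 6063 ChIP reads against 3.10 control reads and ranked 62 of 128388 (top 0.0483%), and EB HOXC6 had 3014 (top 0.259%). None of the day 3 or day 4 lists of HOXC6, HOXC9 and HOXC10 held this site. HOXA9 (80.4 reads, 49.6%), HOXD9 (57.4, 74.8%), HOXC13:C10.1 (70.4, 66.5%) and HOXC13:C10.2 (59.6, 68.9%) did at day 3, all in the lower part of their lists or near its middle.
Nrp1, downstream, chr8:128538520-128538620: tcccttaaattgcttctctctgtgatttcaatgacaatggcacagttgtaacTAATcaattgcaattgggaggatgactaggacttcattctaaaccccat

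Nrp2 encodes neuropilin-2, a receptor of SEMA3C, and spans chr1:62703285-62818695. It had 292 events in 64 sites and was the gene with most HOXC10 events, 16 at day 3 and 12 at day 4. It also had the most HOXC6 events at day 4, 31 against 9 at day 3, while the whole HOXC6 list went from 17900 to 69297 events. HOXC13 had 9 events here, against 22 at Nrp1, and the chimeras with the HOXC13 homeodomain 2 and 3.

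The site of Nrp2 held by the most lists, 16, was in intron 13, 80.0 kb from the start. HOXD9 had 230 ChIP reads (top 7.82%), HOXA9 218 (12.5%), HOXC9 192 (24.4%), HOXC13 125 (30.0%), HOXC8 121 (29.7%) and HOXC10 80.7 (54.0%), and HOXC6 had no event at day 3. HOXC6 was there at day 4 (229 reads, 13.5%) and in EBs (341 reads, rank 4517 of 44751), and EB HOXC9 had 488 (9.16%), the strongest of its events at Nrp2. None of the 5 motifs was among the bases shown.
Nrp2, intron 13, chr1:62783663-62783763: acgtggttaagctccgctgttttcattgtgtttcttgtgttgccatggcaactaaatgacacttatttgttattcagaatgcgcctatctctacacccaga

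Other Nrp2 sites were near the top of several lists. At chr1:62851314, 148 kb from the start and downstream of the gene, HOXD9 had 776 ChIP reads (top 0.360%), HOXA9 482 (3.01%), HOXC9 395 (9.96%) and HOXC10 227 (rank 2752 of 26873). HOXC10 at day 4 had 684 (top 0.536%), its strongest event near any of the 10 genes, and MEIS was at the top 1.05% in iHoxc9 cells and 1.32% in iHoxc10 cells but at 39.2% in iHoxc6 cells. HOXC6 was absent at day 3 and had 55.7 reads (54.4%) at day 4.
Nrp2, downstream, chr1:62851264-62851364: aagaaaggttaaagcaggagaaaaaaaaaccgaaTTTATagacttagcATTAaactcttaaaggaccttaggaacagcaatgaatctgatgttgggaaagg

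At chr1:62780252 in intron 12, 76.5 kb from the start, HOXC10 had its strongest day 3 event near these genes, 393 reads (top 2.92%), with HOXD9 at 0.399%, HOXA9 at 1.61%, HOXC9 at 11.0% and HOXC6 at 75.3%. Its place in the HOXC10 list was the same at day 4, 410 reads (2.92%), and MEIS was at 1.14% in iHoxc9 cells and 3.64% in iHoxc10 cells, with no event in iHoxc6 cells. HOXC6 had its own strong site at Nrp2. At chr1:62825988, 122 kb from the start and downstream, HOXC6 had 417 reads at day 3 (top 2.47%, its strongest event near the 10 genes) and 1614 at day 4 (0.515%), with HOXC8 at 428 (5.15%) and HOXC9 at 46.9 (91.3%). HOXC10 had no event there at day 3 or 4. Downstream of Nrp2, then, 1 site ranked high for HOXC6 and HOXC8 and another for the group 9 factors and HOXC10.
Nrp2, intron 12, chr1:62780202-62780302: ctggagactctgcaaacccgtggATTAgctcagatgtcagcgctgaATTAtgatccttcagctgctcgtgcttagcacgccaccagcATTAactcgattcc
Nrp2, downstream, chr1:62825938-62826038: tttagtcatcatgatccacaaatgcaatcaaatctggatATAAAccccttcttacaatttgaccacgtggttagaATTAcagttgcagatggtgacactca

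**Figure D3:**
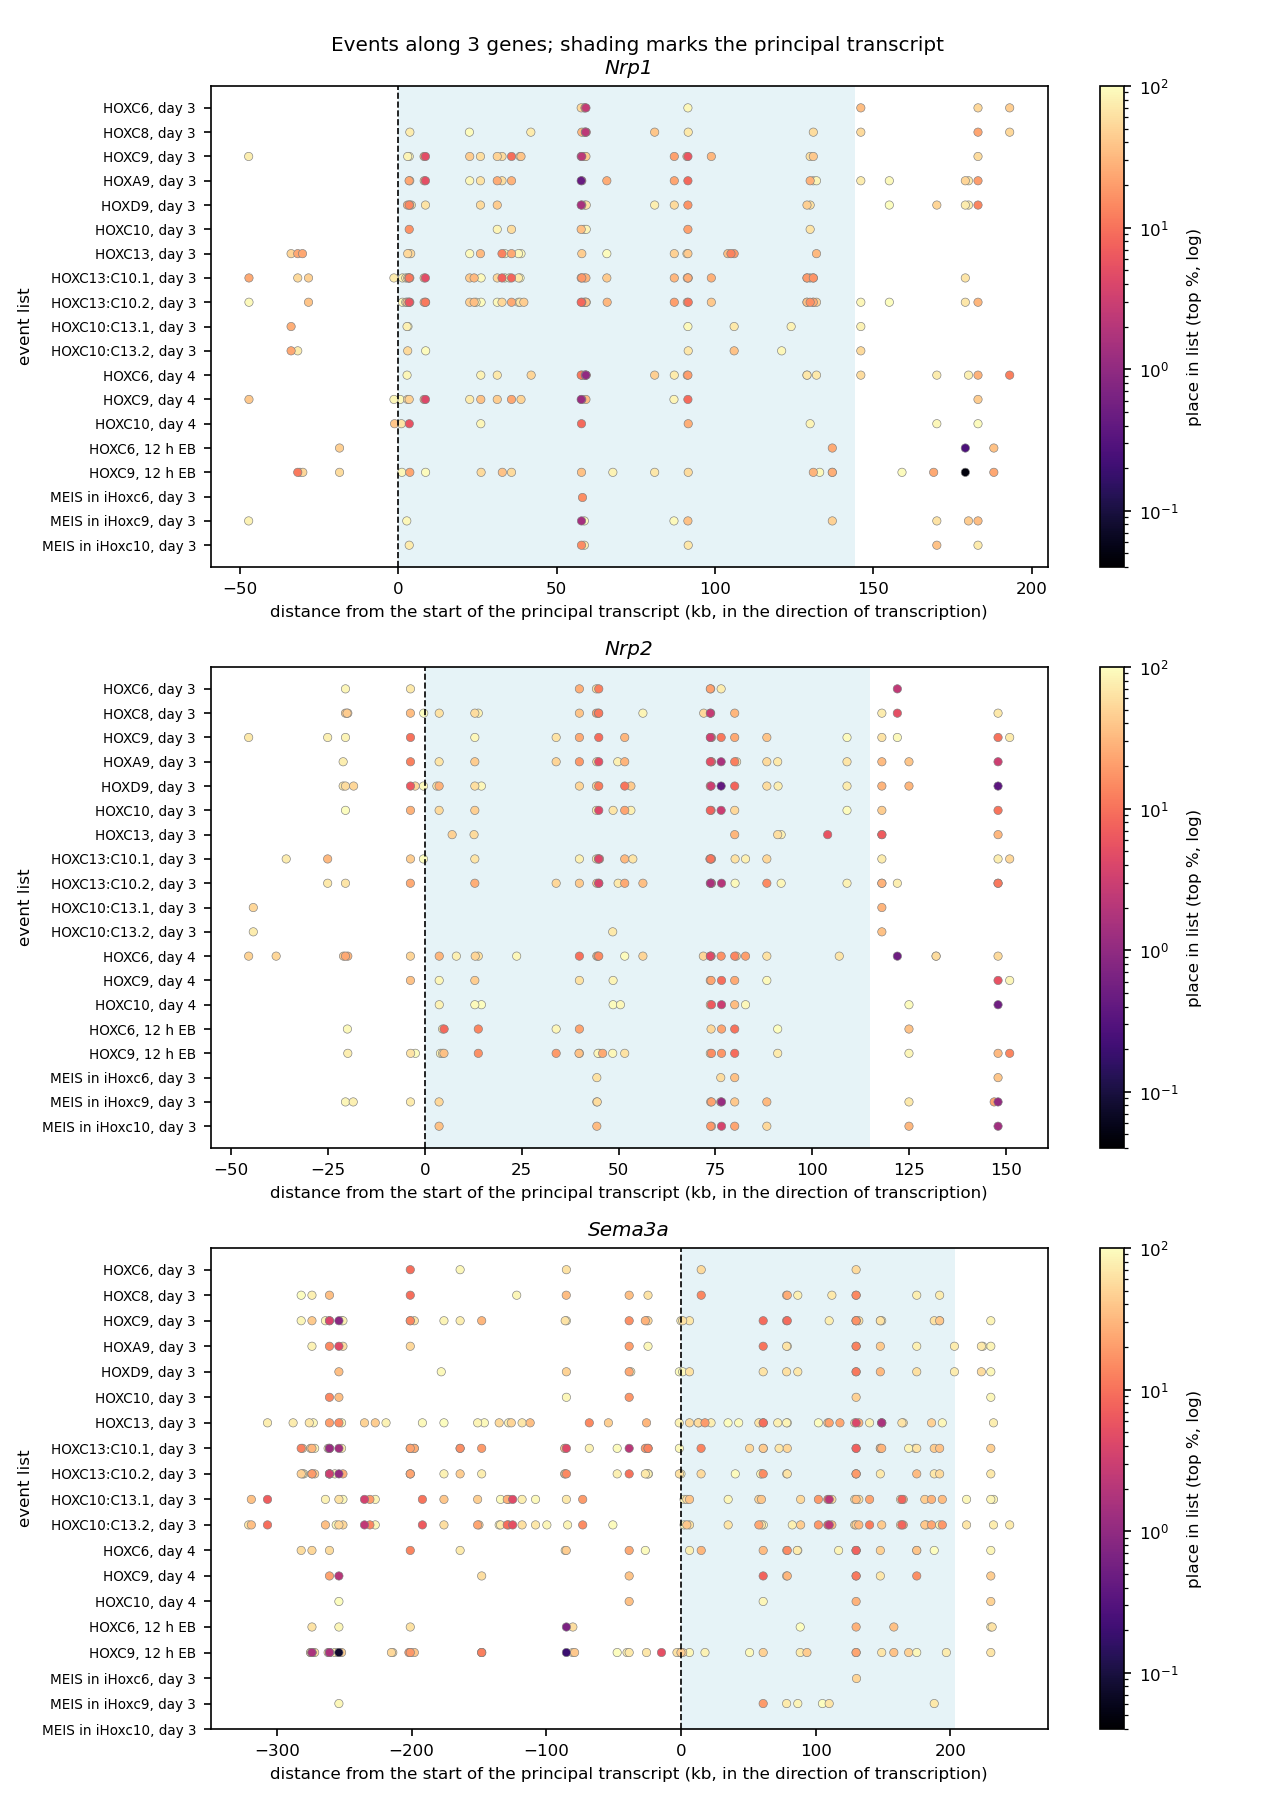
Events of 19 lists (rows) along Nrp1, Nrp2 and Sema3a by distance from the start of the principal transcript in kb, with the colour giving the place in the list on a log scale and dark meaning near the top. The darkest points are EB events downstream of Nrp1 and upstream of the principal start of Sema3a, while dark points of Nrp2 include HOXD9 and MEIS at 76.5 kb and 148 kb, HOXC10 of day 4 at 148 kb and HOXC6 of day 4 at 122 kb.

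The 4 plexins, the signalling partners of the neuropilins, fell into a pair with many sites and a pair with few. Plxna4 (chr6:32144268-32588192) and Plxna2 (chr1:194618218-194816869) had 81 and 56 sites, or 14.9 and 18.8 per 100 kb. Plxna1 (chr6:89316314-89362620) had 16 and Plxnd1 (chr6:115954811-115995005) 14, or 10.9 and 9.99 per 100 kb. The windows of the last pair also hold other coding genes, so their events cannot be ascribed to the plexin. The other 8 windows hold no other coding gene.

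Plxna2 encodes a receptor subunit for SEMA3A with a neuropilin. Its site held by the most lists, 13, was in intron 1, 15.9 kb from the start, with HOXD9 at 252 ChIP reads (top 6.59%), HOXA9 at 269 (8.84%), HOXC8 at 161 (21.2%), HOXC9 at 97.8 (48.4%) and HOXC10 at 63.9 (72.6%). All 3 MEIS lists held it, at 13.7%, 11.0% and 34.2% in iHoxc6, iHoxc9 and iHoxc10 cells, and a TGACAG lies among its letters.
Plxna2, intron 1, chr1:194635645-194635745: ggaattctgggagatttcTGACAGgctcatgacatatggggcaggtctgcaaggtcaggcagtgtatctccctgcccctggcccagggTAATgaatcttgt

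The strongest chimera events at Plxna2 lay at different places for each kind of homeodomain. In intron 26, 184 kb from the start, HOXC10:C13.1 had 1182 ChIP reads and ranked 62 of 61482 (top 0.101%) and HOXC10:C13.2 had 945 (0.151%). HOXC13 had 649 there (3.40%), HOXC9 200 (23.3%) and EB HOXC9 260 (19.6%), and HOXC10 had no event. The chimeras with the HOXC10 homeodomain were there too, HOXC13:C10.1 with 178 (30.8%) and HOXC13:C10.2 with 43.9 (88.4%). In intron 3, 46.2 kb from the start, HOXC13:C10.2 had 1808 reads (top 0.567%) and HOXC13:C10.1 1110 (3.25%), with HOXC9 at 545 (6.15%), HOXA9 at 381 (4.80%), HOXC10 at 66.8 (68.9%) and EB HOXC9 at 1310 (2.18%). Neither HOXC13 nor a chimera with its homeodomain had an event there. In this joined site HOXC9 and HOXC10 of day 3 lay at chr1:194665869 and chr1:194665982, outside the bases shown. The bases shown hold 4 TTTAT and 3 TAAT in intron 26 and 2 TTTAT in intron 3.
Plxna2, intron 26, chr1:194803852-194803952: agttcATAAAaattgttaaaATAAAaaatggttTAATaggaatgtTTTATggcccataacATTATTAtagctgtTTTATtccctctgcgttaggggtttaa
Plxna2, intron 3, chr1:194666001-194666101: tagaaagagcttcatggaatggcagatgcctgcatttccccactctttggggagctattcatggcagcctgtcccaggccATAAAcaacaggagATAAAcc

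Plxna4 encodes the other main plexin of SEMA3A signalling. Its most shared site, of 14 lists, was in intron 3, 180 kb from the start, where HOXC13:C10.2 had 521 reads (top 6.53%), HOXC10 142 (23.4%), HOXC9 105 (45.1%), HOXC13 56.8 (76.4%) and HOXC10 at day 4 250 (9.77%). The highest HOXC13 event near the 10 genes lay 461 kb from the start, downstream of Plxna4, with 2278 reads (top 0.249%). No other full-length factor had an event there at day 3. The chimera HOXC10:C13.2 had 55.0 reads (78.3%) and HOXC9 at day 4 49.2 (77.7%).
Plxna4, intron 3, chr6:32407925-32408025: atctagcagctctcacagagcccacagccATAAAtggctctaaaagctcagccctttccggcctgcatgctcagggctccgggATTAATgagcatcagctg
Plxna4, downstream, chr6:32126810-32126910: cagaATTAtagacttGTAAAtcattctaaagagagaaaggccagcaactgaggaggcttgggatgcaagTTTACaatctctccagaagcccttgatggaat

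Plxna1 encodes another A-type plexin, and its most shared site, of 10 lists, lay downstream of the gene, 51.4 kb from the start. HOXC8 had 348 ChIP reads (top 7.16%), HOXC9 201 (23.2%), HOXC6 100 (31.6%), HOXC10 106 (36.5%) and HOXC13:C10.2 488 (7.22%). The highest-ranked HOXC6 event of any of the 10 genes without HOXC9 or HOXC10 was also here, 19.4 kb upstream of Plxna1, with 163 reads for HOXC6 (15.8%) and 356 for HOXC8 (6.92%), and HOXC6 kept it at day 4 with 188 (17.0%).
Plxna1, downstream, chr6:89311206-89311306: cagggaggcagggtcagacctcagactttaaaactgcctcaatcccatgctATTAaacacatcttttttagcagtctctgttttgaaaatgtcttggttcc
Plxna1, upstream, chr6:89381978-89382078: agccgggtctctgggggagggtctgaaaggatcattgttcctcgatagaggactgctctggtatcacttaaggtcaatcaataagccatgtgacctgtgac

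Plxnd1 encodes Plexin-D1, the receptor of SEMA3E. Its 14 sites were held by at most 5 lists. At the most shared, in intron 1 and 9.98 kb from the start, HOXC8, HOXC9, HOXA9 and HOXD9 had 66.2, 63.0, 62.6 and 71.5 ChIP reads, at 55.4%, 71.8%, 67.5% and 55.0% of their lists. The best event of HOXC9 near this gene was at the top 36.1%, the lowest of the 10 genes, and HOXC6 and HOXC10 had none at day 3.
Plxnd1, intron 1, chr6:115984972-115985072: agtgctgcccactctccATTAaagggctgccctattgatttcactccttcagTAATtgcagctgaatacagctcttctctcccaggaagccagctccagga

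The order of the genes by their best-placed event differed between factors at day 3. For HOXC9 Sema3a came first (top 0.869%), then Sema3c (1.12%), Sema3d (2.16%), Nrp1 (2.23%), Nrp2 (3.25%), Plxna2 (6.15%), Plxna4 (13.6%), Sema3e (17.3%), Plxna1 (23.2%) and Plxnd1 (36.1%). For HOXC10 Nrp2 came first (2.92%), then Sema3d (5.41%), Sema3a (14.0%), Nrp1 (16.6%), Plxna4 (23.4%), Plxna2 (24.1%), Sema3c (26.3%), Sema3e (30.2%) and Plxna1 (36.5%). For HOXC6 both neuropilins led, Nrp2 at 2.47% and Nrp1 at 2.58%, before Sema3a (9.32%), Sema3c (11.4%), Plxna1 (15.8%), Plxna4 (16.0%), Sema3e (21.3%), Sema3d (24.7%) and Plxna2 (24.8%). For HOXC13 Plxna4 led (0.249%), then Sema3c (0.410%), Sema3a (1.60%), Plxna2 (3.40%), Sema3e (5.03%), Nrp2 (5.58%), Sema3d (7.44%), Nrp1, Plxna1 (19.5%) and Plxnd1 (37.6%). These same events were also placed by q-value, without seeking the best event of each gene by that measure. The HOXC10 event of Plxna2 then stood at 52.8%, last of the 9 events, and the HOXC6 event of Plxna1 at 24.2%. A longer window has more events to draw the best from, and no spread between libraries is known for these places.

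**Figure D4:**
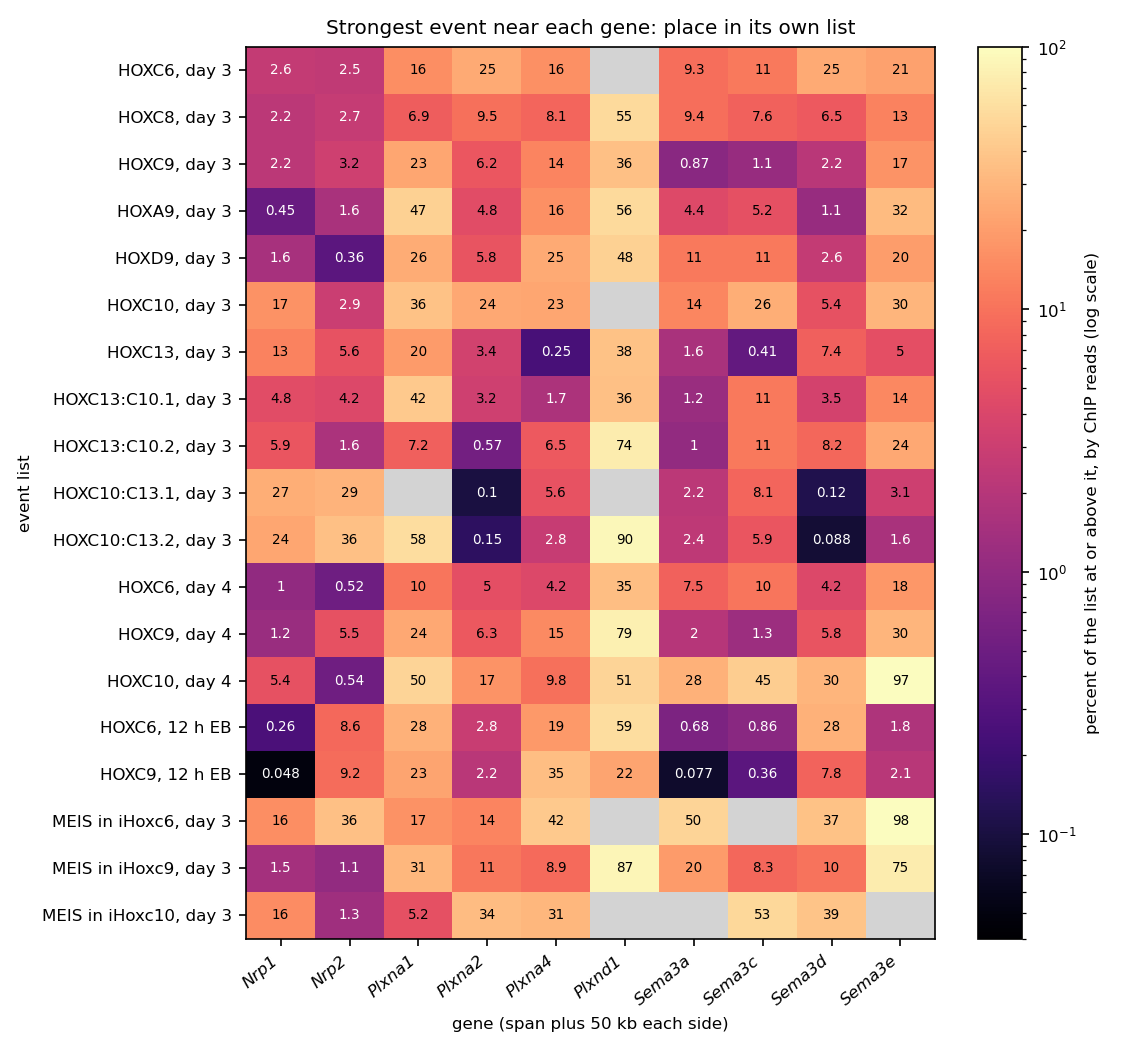
Place of the strongest event near each gene (columns) in each of the 19 lists (rows), as the percent of the list with as many ChIP reads or more, on a log colour scale with grey for no event. Nrp1, Nrp2 and Sema3a reach the top 5% in many HOX lists, while Plxnd1 stays below the top 20% in all.

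Sema3a encodes the best-known repellent of motor axons. Its annotated span, chr5:13125414-13602565, includes long transcripts that begin far before the principal one, which starts at chr5:13399309, so many sites at negative distances are inside the span. It had the most sites, 153. HOXC10:C13.2 had 54 events, HOXC13 52, EB HOXC9 51, HOXC13:C10.1 48, HOXC13:C10.2 46, HOXC10:C13.1 43 and HOXC9 38, against 6 for HOXC10 and 5 for HOXC6 at day 3.

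The site of Sema3a held by the most lists, 17, was in intron 6, 130 kb from the principal start, and was 395 bp wide, so it may join neighbouring events. HOXC13 had 577 ChIP reads there (top 4.12%), HOXD9 192 (11.2%), HOXA9 218 (12.6%), HOXC8 218 (14.5%), HOXC9 263 (16.9%), HOXC10 89.3 (46.9%) and HOXC6 64.7 (55.5%), so that all 7 full-length factors were present. HOXC6 at day 4 had 366 reads (7.46%).
Sema3a, intron 6, chr5:13529396-13529496: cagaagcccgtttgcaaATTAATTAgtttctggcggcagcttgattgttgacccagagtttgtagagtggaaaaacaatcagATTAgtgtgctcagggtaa

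The strongest Sema3a site of HOXC9 lay 254 kb before the principal start. HOXC9 had 1430 ChIP reads there at day 3 (top 0.869%, its best near the 10 genes), 795 at day 4 (2.03%) and 5409 in EBs (0.0771%). HOXA9 had 400 (4.38%), HOXC13 222 (15.1%), HOXD9 97.2 (34.6%) and HOXC10 109 (35.2%), and HOXC6 had an event only in EBs, with 36.5 reads (87.0%). The chimeras with the HOXC10 homeodomain were at 1.38% and 1.04%, those with the HOXC13 homeodomain at 61.9% and 51.2%. At another site, 85.1 kb before the principal start, EB HOXC9 had 4052 reads (0.194%) and EB HOXC6 1944 (0.675%), whereas HOXC9 had 48.1 (89.6%) and HOXC6 59.0 (61.8%) at day 3. Day 3 lists differed widely there. HOXC13:C10.1 had 927 (4.40%), HOXC13:C10.2 293 (14.5%), HOXC8 108 (33.8%) and HOXC10 50.8 (91.2%).
Sema3a, longer transcript, chr5:13144915-13145015: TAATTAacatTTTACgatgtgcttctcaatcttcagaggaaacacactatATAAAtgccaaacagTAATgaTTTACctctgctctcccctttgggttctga
Sema3a, longer transcript, chr5:13314147-13314247: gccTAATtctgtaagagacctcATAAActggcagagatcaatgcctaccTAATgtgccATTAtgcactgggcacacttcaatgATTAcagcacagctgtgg

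Sema3c encodes a ligand that acts through NRP1 and NRP2, spans chr5:17574281-17730268 and had the highest site density, 39.5 per 100 kb. HOXC13 had 42 events and EB HOXC9 43. Its most shared site, of 13 lists, was in intron 2, 8.01 kb from the start, with EB HOXC9 at 390 reads (top 12.2%), HOXC9 at 143 (33.6%) and HOXC13 at 101 (38.4%), and without HOXC6 or HOXC10 at day 3.
Sema3c, intron 2, chr5:17582237-17582337: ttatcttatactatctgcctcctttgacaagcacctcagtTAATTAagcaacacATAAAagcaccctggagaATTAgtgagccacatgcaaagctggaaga

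Intron 12 of Sema3c held neighbouring sites of different kinds. At chr5:17708572, 134 kb from the start, HOXC9 had 1282 ChIP reads (top 1.12%) and at day 4 981 (1.26%), the highest HOXC9 site near the 10 genes without HOXC6 or HOXC10 at day 3. HOXA9 was at 5.82%, HOXD9 at 62.0% and HOXC13 at 51.8%. In the same intron, at chr5:17708091, EB HOXC9 had 1505 reads (1.71%) and EB HOXC6 104 (34.9%), with no HOX event at day 3 or 4. HOXC13 had its strongest Sema3c event in the last exon, 18, in the 3′ UTR at chr5:17728284, with 1857 reads (top 0.410%), where HOXC9 had 364 (11.2%) and neither HOXC6 nor HOXC10 had an event at day 3.
Sema3c, intron 12, chr5:17708522-17708622: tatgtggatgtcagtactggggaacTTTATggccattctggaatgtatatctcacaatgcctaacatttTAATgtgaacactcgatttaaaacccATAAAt
Sema3c, intron 12, chr5:17708041-17708141: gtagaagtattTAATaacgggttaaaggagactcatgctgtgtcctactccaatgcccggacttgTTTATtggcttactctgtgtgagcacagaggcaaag

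Sema3d encodes a further secreted ligand and spans chr5:12383385-12588948. HOXC10:C13.2 had 35 events, HOXC10:C13.1 27 and HOXC13 27, and HOXC10 9, more than at any other ligand. The most shared site, of 14 lists, was 17.3 kb upstream, was the widest of all at 594 bp, and held the best-placed HOXC10 event outside Nrp2, 309 reads (top 5.41%), with HOXD9 at 6.52%, HOXC8 at 6.46%, HOXC6 at 43.6% and HOXC9 at 48.6%. Less than 1 kb from it, at chr5:12365284, HOXC10 had 87.7 reads (48.2%) without HOXC9, the highest of 11 such sites. The bases shown for this site do not reach that event. They are centred on the HOXC6 event of day 4 at chr5:12365343 (79.8 reads, 39.6%).
Sema3d, upstream, chr5:12365996-12366096: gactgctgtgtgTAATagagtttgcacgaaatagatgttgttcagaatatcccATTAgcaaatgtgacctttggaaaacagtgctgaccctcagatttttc
Sema3d, upstream, chr5:12365293-12365393: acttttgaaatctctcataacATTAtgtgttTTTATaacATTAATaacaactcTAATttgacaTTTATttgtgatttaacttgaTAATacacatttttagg

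In intron 1 of Sema3d, 58.3 kb from the start, HOXC10:C13.2 had 1151 ChIP reads (top 0.0881%) and HOXC10:C13.1 1146 (0.119%). HOXC13 had 209 (16.3%), HOXC9 89.4 (52.6%), HOXA9 82.3 (48.1%) and HOXC13:C10.2 59.6 (68.9%), and HOXC10 had no event. This site and the one in intron 26 of Plxna2 were the only sites near the 10 genes in the top 1% of a list of these 2 chimeras.
Sema3d, intron 1, chr5:12441626-12441726: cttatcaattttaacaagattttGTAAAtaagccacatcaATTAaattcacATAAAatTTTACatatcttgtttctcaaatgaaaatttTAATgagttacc

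Sema3e encodes the ligand of Plexin-D1 and spans chr5:14025276-14256689. It differed from the other ligands in its stage: EB HOXC9 had 50 events and HOXC9 10 at day 3 and 5 at day 4. Of its 104 sites, 43 had EB events and no HOX event at day 3 or 4. Such sites were 21 of 153 at Sema3a, 15 of 101 at Sema3c and 10 of 81 at Sema3d, and were not counted over the whole lists. Its most shared site, of 13 lists, lay in intron 1, 14.0 kb from the start, held all 7 full-length factors, and had EB HOXC6 at 1131 ChIP reads (top 1.76%) and EB HOXC9 at 623 (6.63%). At day 3 HOXD9 was at 20.1%, HOXC10 at 30.2%, HOXC9 at 74.0% and HOXC6 at 78.5%.
Sema3e, intron 1, chr5:14039274-14039374: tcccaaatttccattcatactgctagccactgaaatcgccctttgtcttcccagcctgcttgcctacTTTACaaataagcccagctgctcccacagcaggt

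Along the cord, HOXC6 is known from motor neurons that supply the forelimb, HOXC9 from those of the trunk and HOXC10 from those of the hindlimb. Of the sites with at least 1 of them at day 3, 19 held all 3, 14 HOXC6 and HOXC9, 30 HOXC9 and HOXC10, 2 HOXC6 and HOXC10, 105 HOXC9 without the others, 15 HOXC6 and 9 HOXC10. These classes were not counted over the whole lists, so the counts cannot be called particular to the 10 genes. Nrp2 and Nrp1 had 5 and 4 of the sites with all 3, Sema3a and Sema3c had 28 and 26 of the HOXC9 sites without the others, and Plxnd1 had none with all 3. HOXC9 shared 11 of its 20 events with HOXC10 at Nrp2, 6 of 38 at Sema3a and 4 of 33 at Sema3c. Over the 10 genes, 49 of 62 HOXC10 events had a HOXC9 event within 100 bp (79.0%, 95% interval 67.4 to 87.3), with 81.3% over the whole list, and 49 of 175 HOXC9 events had a HOXC10 event (28.0%, 21.9 to 35.1; whole list 30.4%). HOXC6 had HOXC9 at 34 of 52 events (65.4%, 51.8 to 76.8; whole list 69.8%) and the reverse share was 34 of 175 (19.4%, 14.2 to 25.9; whole list 17.3%). HOXC6 and HOXC8 met at 47 of 52 HOXC6 events (90.4%, 79.4 to 95.8; whole list 90.2%) and 49 of 123 HOXC8 events (39.8%, 31.6 to 48.7; whole list 37.0%). Each whole-list share lay inside the interval of the 10 genes. Among the top 10000 events of each list by ChIP reads, HOXC6 had HOXC9 at 15.2% (6.65 to 30.9) and HOXC8 had HOXC6 at 92.9% (77.4 to 98.0). No whole-list value stands beside these last shares. HOXC9 events with a HOXC10 event had a median place of 37.3% in the HOXC9 list and those without 54.4%, against 27.1% and 59.5% over the whole list.

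HOXA9, HOXD9 and HOXC9 belong to 1 paralogue group. HOXC9 had a partner at 104 of 148 HOXA9 events (70.3%, 62.5 to 77.0; whole list 67.4%) and 87 of 151 HOXD9 events (57.6%, 49.6 to 65.2; whole list 55.5%), HOXA9 at 105 of 175 HOXC9 events (60.0%, 52.6 to 67.0; whole list 57.9%) and HOXD9 at 102 of 148 HOXA9 events (68.9%, 61.1 to 75.8; whole list 66.2%). HOXD9 was closer to the receptors, with 91 of its 151 events there against 77 of 175 for HOXC9. HOXC13 had HOXC9 at 55 of 214 events (25.7%, 20.3 to 31.9; whole list 22.1%) and HOXC10 at 13 (6.07%; whole list 7.46%), and 53 of 175 HOXC9 events had HOXC13 (30.3%, 24.0 to 37.5; whole list 34.7%). Of the sites with HOXC13, 151 held no other full-length factor. Events of all 7 full-length factors were joined at 6 sites, 2 each in Nrp1 and Sema3e and 1 each in Sema3a and Sema3d. At such sites not every pair of events lay within 100 bp. Neither count of sites was made over the whole lists.

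How often partners lay at the very same base differed widely between pairs of lists. At day 3 HOXC6, HOXC10, HOXC13 and the 3 group 9 factors were called against the same control of 20.6 M reads, and 89.8% of the HOXC10 events with a HOXC9 partner had it at the same base. Between HOXC6 and HOXC8, which was called against a control of 20.3 M reads, this was 6.38%, and for HOXC10:C13.1 with HOXC10:C13.2 it was 93.3%. EB HOXC6 and EB HOXC9, which also share a control, had 0% at the same base. The part of joint calling in the shares was not tested.

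From day 3 to day 4 the number of events near these genes moved with the length of the lists. HOXC6 went from 52 events to 176, HOXC9 from 175 to 100 and HOXC10 from 62 to 51, as the whole lists went from 17900 to 69297, 74085 to 44024 and 26873 to 22027. As a percent of its list, HOXC6 had 0.291 near the 10 genes at day 3 and 0.254 at day 4, HOXC9 had 0.236 at day 3 and 0.227 at day 4, and HOXC10 had 0.231 and then 0.232. Of the HOXC6 events of day 3, 50 of 52 had a day 4 HOXC6 event (96.2%, 87.0 to 98.9; whole list 92.4%), whereas 55 of 176 at day 4 had one at day 3 (31.2%, 24.9 to 38.4; whole list 25.9%). The HOXC6 events of day 4 with a day 3 partner had a median place of 17.9% and the others 59.8%, against 15.2% and 61.9% over the whole list. HOXC9 at day 4 was largely a part of day 3: 85 of 100 events had a day 3 event (85.0%, 76.7 to 90.7; whole list 81.8%), and 84 of 175 day 3 events had one at day 4 (48.0%, 40.7 to 55.4; whole list 49.4%). By gene the latter was 16 of 24 at Nrp1, 11 of 38 at Sema3a and 14 of 33 at Sema3c. HOXC10 had 26 of 51 day 4 events at day 3 (51.0%, 37.7 to 64.1; whole list 56.4%) and 26 of 62 day 3 events at day 4 (41.9%, 30.5 to 54.3; whole list 46.4%). The day 4 lists were called against a control of 4.72 M reads, and the part of the control in these counts was not tested.

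In EBs without patterning, most HOXC9 events near these genes had no HOXC9 event of day 3 beside them. Of 248 EB HOXC9 events, 73 had a HOXC9 event at day 3 (29.4%, 24.1 to 35.4), against 23.5% over the whole list, which lies just under the interval. The count was 20 of 43 at Sema3c, 18 of 51 at Sema3a, 11 of 23 at Nrp2, 6 of 22 at Nrp1 and 6 of 50 at Sema3e. Of the HOXC9 events of day 3, 71 of 175 had an EB HOXC9 event (40.6%, 33.6 to 48.0; whole list 40.4%). EB HOXC6 had HOXC6 of day 3 at 10 of 83 events (12.0%, 6.68 to 20.8; whole list 7.38%) and EB HOXC9 at 60 (72.3%, 61.8 to 80.8; whole list 71.7%), so EB HOXC6 events lay more often beside EB HOXC9 than beside HOXC6 of day 3. At 125 sites EB HOXC9 had no HOX event at day 3 or 4, a count not made over the whole lists.

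The chimeras ask which part of HOXC10 and HOXC13 sets where they bind. Those with the HOXC13 homeodomain shared many more events with HOXC13 than with HOXC10: 57 of 115 (49.6%, 40.6 to 58.6; whole list 49.5%) against 10 (8.70%, 4.79 to 15.3; whole list 6274 of 61482) for HOXC10:C13.1, and 71 of 154 (46.1%, 38.4 to 54.0; whole list 47.0%) against 8 (5.19%, 2.66 to 9.92; whole list 7.89%) for HOXC10:C13.2. Both differences were 40.9 points, with 95% intervals of 29.7 to 50.7 and 31.9 to 49.2. Every interval of a difference here treats its shares as independent, although both were counted on the same events, so the pairing of events was not used. Among the top 10000 events of each list by ChIP reads they fell to 9.52 (-7.40 to 28.9) and 10.0 points (-7.65 to 30.1), intervals that include 0. The 2 chimeras also shared most events with each other, 105 of 115 (91.3%, 84.7 to 95.2; whole list 89.6%) and 105 of 154 (68.2%, 60.5 to 75.0; whole list 64.1%). For those with the HOXC10 homeodomain the difference depended on the lists compared. HOXC13:C10.1 had HOXC13 at 66 of 227 events (29.1%, 23.6 to 35.3; whole list 37.5%) and HOXC10 at 55 (24.2%, 19.1 to 30.2; whole list 21.9%), a difference of 4.85 points (-3.29 to 12.9). HOXC13:C10.2 had HOXC13 at 54 of 249 (21.7%, 17.0 to 27.2; whole list 28.5%) and HOXC10 at 67 (26.9%, 21.8 to 32.7; whole list 31.3%), a difference of -5.22 points (-12.7 to 2.32). With HOXC13 both whole-list shares lay above the interval. Both of these intervals include 0, but with windows of 100 kb each side HOXC13:C10.1 leaned to HOXC13 by 9.29 points (1.83 to 16.6). The HOXC10 list is the shorter, 26873 events against 115879. Among the top 10000 events of each list by ChIP reads the differences were -25.0 (-49.9 to 2.92) for HOXC13:C10.1 and -66.7 (-81.4 to -44.1) for HOXC13:C10.2. By q-value they were -29.4 (-53.3 to -1.69) and -61.5 (-77.6 to -38.6). HOXC10 was then the more frequent partner near these genes, though the interval of HOXC13:C10.1 by ChIP reads includes 0. Differences among the top 10000 events, here and above, have no whole-list value beside them. They cannot be called particular to the 10 genes. By gene, HOXC13:C10.1 shared 15 of 38 events with HOXC13 at Nrp1 but 2 of 22 at Nrp2, and 10 and 12 with HOXC10. The events of HOXC13:C10.2 that HOXC10 shared had a median place of 20.9% and the others 59.0%, against 20.9% and 62.7% over the whole list.

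**Figure D5:**
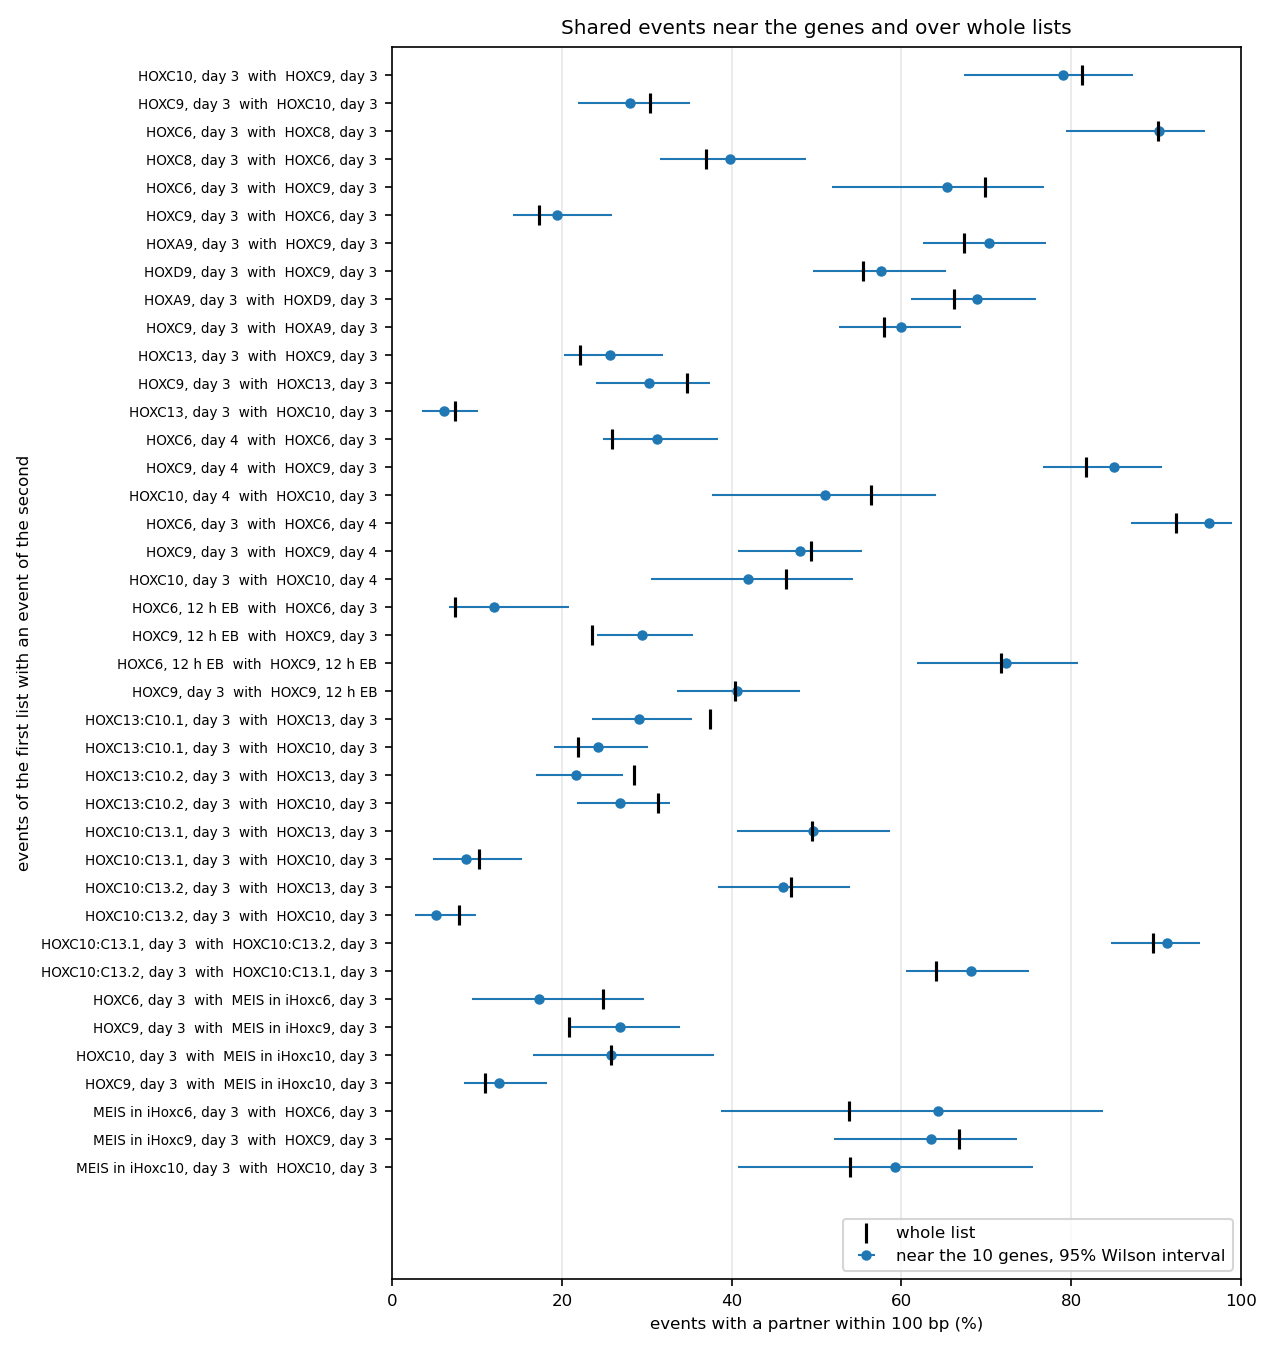
Percent of events of the first list with an event of the second within 100 bp, near the 10 genes (points with 95% Wilson intervals) and over the whole list (bars). The whole-list share lies inside the interval for 36 of 40 pairs of lists.

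MEIS proteins are cofactors that bind DNA with HOX proteins. MEIS had 74 events here in iHoxc9 cells, 27 in iHoxc10 cells and 14 in iHoxc6 cells, each from 1 library and from lists of 22749, 12982 and 8219 events. Receptors held 48, 22 and 9 of them, and Nrp2 alone 15, 9 and 4. Of the sites with a MEIS event, 66 also held a HOX event and 10 did not, 6 of these at Plxna4, and these classes were not counted over the whole lists. HOXC9 had MEIS of iHoxc9 cells at 47 of 175 events (26.9%, 20.8 to 33.9), against 20.8% over the whole list, a value at the lower bound. HOXC6 had MEIS of iHoxc6 cells at 9 of 52 (17.3%, 9.38 to 29.7; whole list 24.9%) and HOXC10 MEIS of iHoxc10 cells at 16 of 62 (25.8%, 16.6 to 37.9; whole list 25.8%). MEIS of iHoxc10 cells was at 22 of the 175 HOXC9 events (12.6%, 8.45 to 18.3; whole list 11.0%). In the other direction 47 of 74 MEIS events had HOXC9 (63.5%, 52.1 to 73.6; whole list 66.8%), 16 of 27 HOXC10 (59.3%, 40.7 to 75.5; whole list 53.9%) and 9 of 14 HOXC6 (64.3%, 38.8 to 83.7; whole list 53.8%). HOXC9 events with MEIS had a median place of 26.5% and those without 56.5%, against 26.0% and 55.8% over the whole list. For HOXC10 the places were 30.7% and 54.5% (whole list 27.6% and 57.2%). For HOXC6, with 9 such events, they were 54.8% and 45.0%, the reverse of the order over the whole list (28.5% and 56.8%). The highest MEIS event without any HOX event was in intron 12 of Nrp2, 76.4 kb from the start, with 115 ChIP reads in iHoxc9 cells (top 15.9%) and 45.5 in iHoxc6 cells (56.1%).
Nrp2, intron 12, chr1:62780064-62780164: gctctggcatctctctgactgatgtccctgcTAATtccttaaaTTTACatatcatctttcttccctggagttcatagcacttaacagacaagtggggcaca

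PBX, the other cofactor, had no event near any of the 10 genes in iHoxc9 or iHoxc10 cells at day 4. Lists of 1165 and 848 events spread evenly by length would put 1.35 and 0.980 events in these windows, so at this length an absence could not be told from a low level.

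Of 60 pairs of a list and a motif, 4 had a whole-list share outside the interval of the 10 genes. These were TGACAG near HOXC9 (17.1%, 12.3 to 23.4; whole list 11.6%) and HOXC13:C10.1 (13.7%, 9.79 to 18.7; whole list 9.35%), TTTAT near HOXC13:C10.1 (58.6%, 52.1 to 64.8; whole list 65.2%) and TAAT near HOXC10:C13.1. TTTAT lay within 50 bp of 106 of 175 HOXC9 events (60.6%, 53.2 to 67.5; whole list 62.4%), 165 of 214 HOXC13 events (77.1%, 71.0 to 82.2; whole list 78.8%) and 16 of 52 HOXC6 events (30.8%, 19.9 to 44.3; whole list 38.4%), and at 34.7% of 3059 positions taken every 1 kb along the windows. TTTAC lay near 98 HOXC13 events (45.8%, 39.3 to 52.5; whole list 42.8%) and 39 HOXC9 events (22.3%, 16.8 to 29.0; whole list 27.7%), against 19.7% of these positions. TAAT lay near 40 of 52 HOXC6 events (76.9%, 63.9 to 86.3; whole list 71.1%) and at 54.4% of positions, and near 111 of 115 HOXC10:C13.1 events (96.5%, 91.4 to 98.6; whole list 90.2%). The positions themselves differed by role: TTTAT was at 26.4% of receptor and 43.5% of ligand positions and TAAT at 45.4% and 64.0%. TGACAG was near 19 of 74 MEIS events in iHoxc9 cells (25.7%, 17.1 to 36.7; whole list 21.2%) and at 7.13% of positions. TGATTTAT was near 8 HOXC9 events (4.57%; whole list 5.93%) and none of the 52 HOXC6 events (whole list 3.47%).

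Other genes of the pathway were taken from lists of 16 other semaphorins, 5 other plexins, 5 co-receptors and 15 intracellular effectors. Of the other semaphorins 13 held a HOXC9 event at day 3, with a median of 1.60 per 100 kb, and Sema5a held the most, 40. Of the other plexins only Plxnc1 held HOXC9 or HOXC10 events at day 3, 11 and 7. At day 4 all 5 held a HOXC10 event and 2 a HOXC9 event, as did 63.7% and 61.8% of coding genes. EB HOXC9 had events at all 5, and at 89.3% of coding genes. Among the co-receptors 4 of 5 held HOXC9 events at day 3, with a median of 3.74 per 100 kb and 35 at Chl1. Of the effectors 12 of 15 did, with 2.58 per 100 kb. Over all coding genes 70.4% held a HOXC9 event at day 3. The HOXC9 median over all coding genes is the 0.985 per 100 kb given above, and the 5.13 of the 10 genes lay above each of these lists. For HOXC10:C13.1 the other semaphorins had a median of 0.224 per 100 kb, against 0.880 over all coding genes, with 24 events at Sema6d. An event of this chimera lay at 8 of the 16 genes, and at 63.3% of all coding genes. PBX had 3 events each in its 2 lists among the other semaphorins.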

How the data were processed

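ChIP-seq libraries of tagged HOX factors, MEIS and PBX were aligned by the authors to mm10 with Bowtie 1.0.1, and events were called with MultiGPS at a q-value under 0.001 with the libraries of a group pooled. The deposited event lists give estimated counts of ChIP and scaled control reads per event and a log2-based score of significance, which the authors computed. Of the 42 libraries in 23 groups, 2 control libraries have no list, and columns of the authors' comparisons between factors were not used.

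Events were assigned to the GENCODE M21 span of a gene plus 50 kb each side, and events of any list within 100 bp were merged. A share was the percent of events with a partner within 100 bp, with a 95% Wilson interval for counting error. The interval of a difference of shares was combined from their Wilson intervals as if the shares were independent. Events were ranked by ChIP reads. Motifs were searched within 50 bp on both strands, and sequences come from RefSeq GRCm38.p6. Named per gene were the site of the most lists and the best event of HOXC6, HOXC9, HOXC10 and HOXC13 at day 3, and over the genes the best site of each class and of each chimera in its top 1%. Sites in the top 1% of other lists were added after their values were seen. The members and lists were chosen with earlier results of these data known. Merging and sharing were tested on simulated positions. Alternatives were the merging distance, the window, the q-value, lists of equal length and the motif window. Python 3.11.15, numpy 2.4.6, pandas 2.3.3, scipy 1.17.1 and pysam 0.24.0 were used.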

Additional observations from a re-analysis of the deposited data

How the results depend on the processing

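No paired analysis was possible because each deposited list pools the libraries of its group, and for the same reason no replicate could be left out and no test between replicates was made. Among the summary values under an alternative, 112 stayed within their counting interval or within 1.5 times a count, 47 moved and 2 changed sign. The cause was not tested. None of the shares below has a whole-list value beside it. With 10000 events per list by ChIP reads, sites fell to 141 and those of all 7 factors to 0. Shares became 47.6% (HOXC10 with HOXC9), 41.7% (HOXC9 with HOXC10), 72.7% (HOXC6 with HOXC8), 92.9% (HOXC8 with HOXC6), 15.2% (HOXC6 with HOXC9), 84.6% and 65.2% (HOXC6 and HOXC9 of day 4 with day 3), 5.88% and 18.2% (EB HOXC6 and EB HOXC9 with day 3), 41.7% and 42.9% (HOXC9 and HOXC10 with MEIS), 50.0% (HOXC9, TTTAT) and 75.0% (HOXC13, TTTAC). The HOXC13 minus HOXC10 difference became -25.0 and -66.7 points for HOXC13:C10.1 and HOXC13:C10.2, and 9.52 (-7.40 to 28.9) and 10.0 (-7.65 to 30.1) for HOXC10:C13.1 and HOXC10:C13.2. With 10000 events by q-value the same values were 141 sites, 0 of all 7, 47.4%, no moved value for HOXC9 with HOXC10, 67.6%, 92.6%, 14.7%, 76.9% and 69.6%, 6.67% and 22.7%, 38.5% and 42.1%, 80.0% for TTTAC, and differences of -29.4, -61.5, 5.56 and 10.0 points. At q under 1e-06, sites of all 7 were 2, and shares were 97.1% (HOXC6 with HOXC8), 12.9% (HOXC9 with HOXC6), 69.2% (HOXC10 of day 4 with day 3) and 8.82%, 18.0% and 15.4% (HOXC6, HOXC9 and HOXC10 with MEIS). With partners within 50 bp, sites of all 7 were 3 and HOXC6 with HOXC8 was 78.8%. Motif windows of 25 and 100 bp gave 48.0% and 76.6% for HOXC9 with TTTAT and 31.8% and 61.2% for HOXC13 with TTTAC. With 100 kb each side the interval for HOXC13:C10.1 excluded 0 (9.29 points, 1.83 to 16.6).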
